A study of Mus musculus with 4 samples.

Results

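The 10 genes described here encode proteins that restrain mTORC1, and they were followed in RNA-seq libraries of mouse embryonic stem cells. They were the sestrin genes Sesn1, Sesn2 and Sesn3, the REDD genes Ddit4 and Ddit4l, the tuberous sclerosis genes Tsc1 and Tsc2, Deptor, and the GATOR1 subunit genes Depdc5 and Nprl2. The genes were chosen by name, with earlier results of these data known. All 10 of them, out of 55401 gene IDs in the count table, were found by their Ensembl ID. They passed the filter on low counts, which left 13916 genes for testing. The cells carried an auxin-inducible degron with green fluorescent protein at the C terminus of the protein from both copies of Zbtb21, a BTB-type zinc finger gene, and the plant F-box protein OsTIR1 in the Rosa26 locus. They came from clones selected for the tag and grew in LIF, CHIR99021, which inhibits GSK3, and PD0325901, which inhibits MEK. There were 2 libraries of untreated cells and 2 of degron cells, to which 1 µg/ml doxycycline was given for 24 h, followed by 24 h of the auxin IAA at 500 µM to destroy the tagged protein. Whether the untreated cells had doxycycline is not stated. The effects of the additions that only the degron cells had and of the loss of ZBTB21 cannot be told apart here.

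mTORC1 drives protein synthesis and cell growth when amino acids, growth factors and energy are sufficient, and it does so on the surface of the lysosome. Amino acids reach it through the Rag GTPases, on which GATOR1 acts as a brake and GATOR2 as a release of that brake. Sestrins bind GATOR2 and hold it back, and SESN2 lets go when it binds leucine. Growth factors reach mTORC1 through the GTPase RHEB, which the TSC1-TSC2 complex switches off, and REDD1, the product of Ddit4, promotes that step under hypoxia and other stress. DEPTOR binds mTOR itself. In mouse embryonic stem cells and blastocysts, partial inhibition of mTOR is known to bring on a paused state that resembles diapause.

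Library totals ranged from 8344408 to 10604451 counts. The 10 pluripotency markers summed to between 6122 and 6431 CPM (counts scaled to a common library size, with TMM factors) in every library, but 3 of them were called higher and 4 lower, from Klf4 at 1.64 to Tdgf1 at 0.563 of the untreated level (edgeR adjusted p = 2.79e-19 and 1.52e-21). Of 9 fibroblast markers 4, among them Dcn and Postn, had no count in any library, and the list summed to between 18.0 and 19.9 CPM, with Thy1 lower (0.298 of the untreated level, edgeR adjusted p = 4.06e-09) and Pdgfrb higher (1.65-fold, edgeR adjusted p = 9.28e-05). The 7 primitive endoderm markers summed to 10.5 CPM in both untreated libraries and to 15.9 and 16.0 CPM in the degron libraries, and the 7 neural markers to 163 CPM in both untreated and to 132 and 130 CPM in the degron libraries. The part of these marker changes in the results was not tested. Trophoblast markers (95.1 to 101 CPM) and mesendoderm markers (15.8 to 19.0 CPM) had overlapping sums in the groups. The mRNA of the targeted gene, Zbtb21, was higher in degron cells (131 against 59.3 CPM, edgeR adjusted p = 2.66e-26), which does not check the labels because the degron acts on the protein. RNA came from whole cultures, so fewer cells of a type and less RNA per cell cannot be told apart.

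The promoters of the 3 members with the largest rises and of the only member that was called lower are shown first, as the stretches of DNA next to the starts of the genes whose RNA moved. The RefSeq table (GRCm38.p6) held windows from 250 bases before to 50 bases after a start for 9 of the members, 10 windows in all, with 2 for Sesn1. Capitals mark matches on either strand to the core of the hypoxia response element in its forms ACGTG and GCGTG, so that CACGC is GCGTG on the other strand. The windows are Sesn2, minus strand, chr4:132510407-132510706; Sesn3, plus strand, chr9:14276051-14276350; Ddit4, minus strand, chr10:59951721-59952020; and Nprl2, plus strand, chr9:107541959-107542258.
Sesn2: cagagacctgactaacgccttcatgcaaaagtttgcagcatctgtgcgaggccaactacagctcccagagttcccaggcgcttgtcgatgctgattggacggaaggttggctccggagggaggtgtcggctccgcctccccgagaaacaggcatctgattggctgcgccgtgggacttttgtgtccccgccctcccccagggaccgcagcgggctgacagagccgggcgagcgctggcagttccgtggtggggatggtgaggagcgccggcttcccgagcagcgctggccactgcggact
Sesn3: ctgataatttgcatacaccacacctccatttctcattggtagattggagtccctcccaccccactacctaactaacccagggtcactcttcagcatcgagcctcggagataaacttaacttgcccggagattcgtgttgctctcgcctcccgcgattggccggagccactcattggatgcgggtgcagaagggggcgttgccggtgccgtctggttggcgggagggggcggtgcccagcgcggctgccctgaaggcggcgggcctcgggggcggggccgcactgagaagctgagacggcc
Ddit4: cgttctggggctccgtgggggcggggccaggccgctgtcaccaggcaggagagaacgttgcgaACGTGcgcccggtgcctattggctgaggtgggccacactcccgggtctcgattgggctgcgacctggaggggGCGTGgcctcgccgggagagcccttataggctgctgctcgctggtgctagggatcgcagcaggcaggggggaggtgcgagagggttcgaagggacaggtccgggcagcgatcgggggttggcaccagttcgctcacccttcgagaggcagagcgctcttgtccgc
Nprl2: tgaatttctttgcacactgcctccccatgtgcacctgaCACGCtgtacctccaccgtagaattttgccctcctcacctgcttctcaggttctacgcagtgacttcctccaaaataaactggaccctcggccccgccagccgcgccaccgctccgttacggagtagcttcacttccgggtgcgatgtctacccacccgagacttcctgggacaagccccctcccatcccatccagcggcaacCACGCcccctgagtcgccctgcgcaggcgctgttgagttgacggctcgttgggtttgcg

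The Ddit4 window held ACGTG from -187 to -183 and GCGTG from -115 to -111, counted from the start. ACGTG was found in 1 of the 10 member windows and in 19.6% of all 32851 windows in the table, and GCGTG in 7 of 10 and in 32.4%. Neither the Sesn2 nor the Sesn3 window held either form. The letters TGATGNAA, the core of the C/EBP-ATF element through which ATF4 and CHOP act, were in 0 of 10 member windows and in 3.97% of all windows, and the E-box CACGTG, which contains ACGTG, was in 0 of 10 and in 7.15%. The forkhead element GTAAACA was in 1 member window, that of the upstream start of Sesn1, and in 3.65% of all windows. The AP-1 and NRF2-type core TGANTCA (7.81% of all windows) and a p53 response element (0.0731%) were in 0 of the 10. The member windows were rich in G and C, from 57.3% for Tsc1 to 71.0% for the downstream start of Sesn1, against a median of 52.7% over all windows. A match of letters is a description of the window only.

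Of the 10 members 6 were higher in degron cells and 1 was lower by edgeR's quasi-likelihood test at a Benjamini-Hochberg adjusted p under 0.05. Over all 13916 genes tested, 43.8% were called, 22.2% higher and 21.6% lower. As the members were chosen with earlier results of these data known, their counts are no independent test against these shares. Sesn2 rose 2.14-fold, Ddit4 and Sesn3 rose 1.43-fold each, and Tsc2, Tsc1 and Depdc5 rose 1.26-fold, 1.19-fold and 1.12-fold. Nprl2 fell to 0.787 of its untreated level. Sesn1, Deptor and Ddit4l were not called. The median log2 fold change of the 10 members was 0.21, against 0.01 over all genes tested. In all 10 genes the libraries of the groups did not overlap, 6 with the degron libraries higher and 4 with them lower, a pattern that 70.6% of all tested genes showed (36.3% higher, 34.4% lower). DESeq2, the tool of the study, called 4 of the members higher and 0 lower, where it called 22.0% of 13295 genes, 10.8% higher and 11.2% lower. At an unadjusted p under 0.05 it had 5 members higher and 0 lower, against 15.9% and 15.7% of all genes. Whether the replicates were separate cultures is not said in the labels, and the p-values therefore cover the scatter of these 4 libraries alone, which could be technical.

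**Figure D1:**
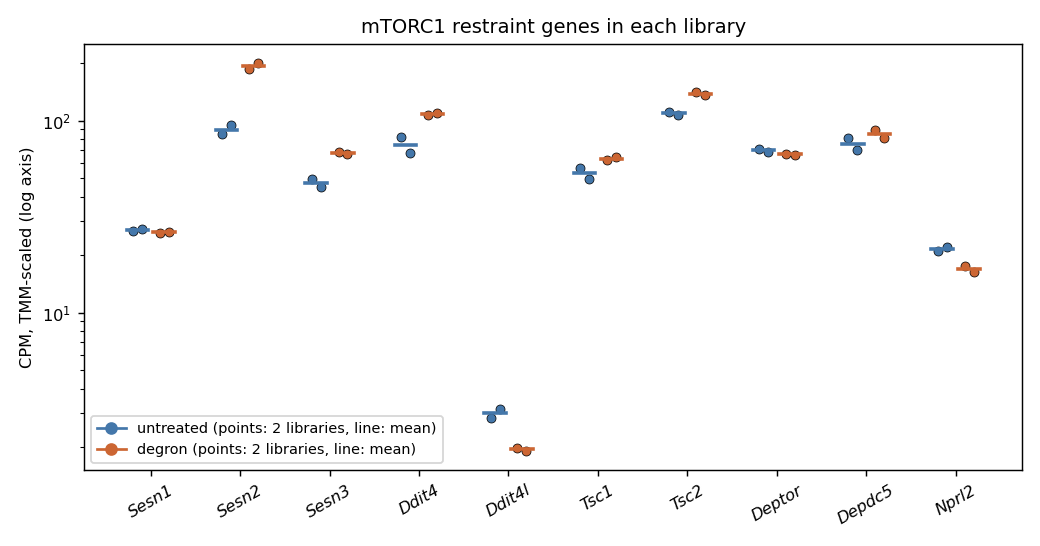
Level of each mTORC1 restraint gene in each library, in TMM-scaled CPM on a log axis, with untreated libraries in blue and degron libraries in orange (points, 2 libraries a group; line, their mean). Sesn2 shows the widest gap, from 85.3 and 94.6 CPM to 186 and 199 CPM, and Ddit4l lies lowest, between 1.91 and 3.14 CPM.

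**Figure D2:**
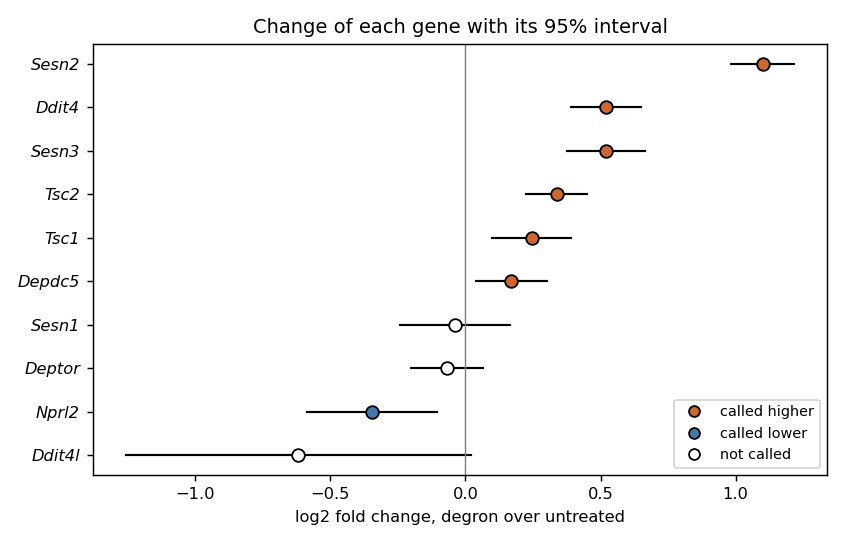
Log2 fold change of each gene in degron over untreated cells (points) with its 95% interval from the edgeR fit (lines), orange for genes called higher, blue for the gene called lower and white for those not called. Sesn2 stands at 1.10, apart from the rest, and the interval of Ddit4l, from -1.26 to 0.02, is the widest.

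The sestrins moved apart from each other. Sesn2 (ENSMUSG00000028893.8, chromosome 4, 132492032 to 132510501, minus strand, mm10), which encodes a leucine-binding sestrin, had 85.3 and 94.6 CPM in the untreated libraries and 186 and 199 CPM in the degron libraries. Both degron libraries were far above both untreated libraries, which differed from each other by only 1.11-fold. The log2 fold change was 1.10 ± 0.06 SE (adjusted p = 4.35e-27, edgeR), and 4.23% of all tested genes had a larger change in either direction. The counts behind it were 901 and 873 against 1707 and 1666. Sesn2 was also the only member called against a minimum change of 1.5-fold (glmTreat), a test that 3.78% of all genes passed, 2.06% higher and 1.72% lower.

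Sesn3 (ENSMUSG00000032009.8, chromosome 9, 14275067 to 14333101, plus strand), the sestrin known as a target of FOXO factors, had 49.6 and 45.3 CPM in untreated and 68.9 and 67.4 CPM in degron cells. The groups were well apart, and the degron libraries were nearly equal. The rise had a log2 fold change of 0.52 ± 0.07 SE (adjusted p = 8.10e-09, edgeR). Sesn1 (ENSMUSG00000038332.13, chromosome 10, 41809935 to 41908424, plus strand), known first as a p53 target, had 26.6 and 27.3 CPM in untreated and 26.1 and 26.4 CPM in degron cells. All of these libraries lay close together, with the degron pair just under the untreated pair. Its log2 fold change was -0.04, with a 95% interval from -0.24 to 0.16 (edgeR adjusted p = 0.788), so the interval holds neither the rise of Sesn2 nor that of Sesn3.

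The make-up of the sestrin mRNA differed between the groups as well. On the scale of CPM per kilobase of exon, Sesn2 made up 71.2% and 73.5% of the summed sestrin level in the untreated libraries and 82.9% and 83.8% in the degron libraries. The share of Sesn1 went from 19.4% and 18.5% to 10.1% and 9.71%, and that of Sesn3 from 9.42% and 8.01% to 6.98% and 6.46%. Sesn3 thus took a smaller share while its own level rose. The shares rest on exonic lengths of 15269 bases for Sesn3, 3982 for Sesn1 and 3475 for Sesn2. In CPM not divided by length, Sesn3 lay above Sesn1 in every library. The ratio of Sesn2 to Sesn1, which does not depend on the scaling of a library, was 3.67 and 3.97 in untreated and 8.18 and 8.64 in degron cells, a 2.20-fold difference. The ratio of Sesn2 to Sesn3 was 7.56 and 9.18 against 11.9 and 12.98, and that of Sesn3 to Sesn1 was 0.486 and 0.433 against 0.690 and 0.666. In each of these ratios both degron libraries were above both untreated libraries. A total of 6 ratios between members were computed, chosen after their values were seen, and with 2 libraries against 2 an exact two-sided permutation test cannot give a p below 0.333, which was the p of all of them (adjusted p = 0.40) except that of Tsc2 to Tsc1 (exact p = 0.667, adjusted p = 0.667).

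**Figure D3:**
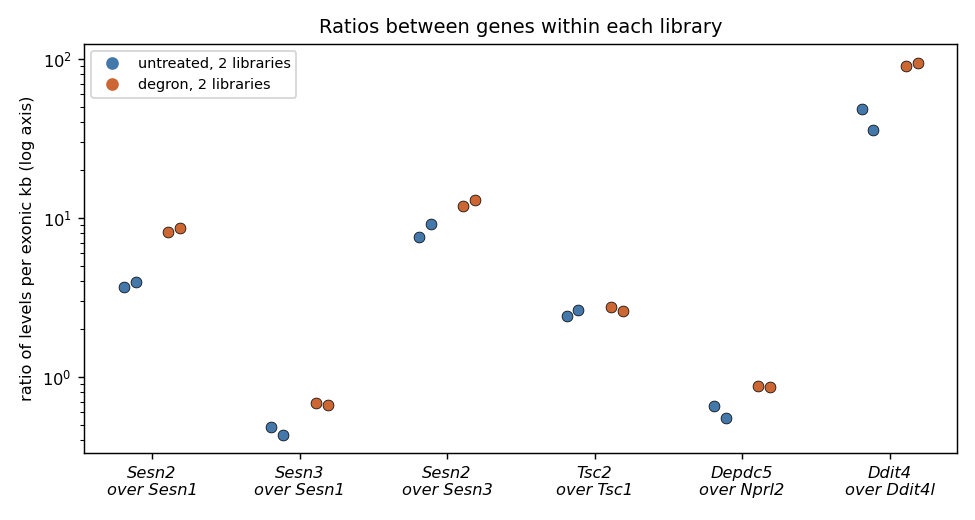
Ratio of the level of a gene to that of another within each library, from counts per kilobase of exon, on a log axis (points, 2 libraries a group, untreated in blue and degron in orange). The ratio of Ddit4 to Ddit4l lies at 35.9 and 48.1 in untreated and at 90.8 and 94.9 in degron cells, whereas the points of Tsc2 to Tsc1 overlap between the groups.

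The REDD paralogs had values on opposite sides of zero, and only Ddit4 was called. Ddit4 (ENSMUSG00000020108.4, chromosome 10, 59949669 to 59951834, minus strand), which encodes the stress-induced REDD1, had 82.3 and 68.0 CPM in untreated and 107 and 109 CPM in degron cells. The degron libraries were nearly equal and above both untreated libraries, which were themselves 1.21-fold apart, the widest replicate gap among the members. The log2 fold change was 0.52 ± 0.07 SE (adjusted p = 3.02e-10, edgeR), and it ranged from 0.40 without untreated replicate 2 to 0.66 without untreated replicate 1. Ddit4l (ENSMUSG00000046818.7, chromosome 3, 137621612 to 137628333, plus strand), which encodes the related REDD2, had 30 and 29 counts in the untreated and 18 and 16 counts in the degron libraries, or 2.84 and 3.14 against 1.96 and 1.91 CPM. The degron libraries were the lower ones. At this depth the difference was not called (log2 fold change -0.62, 95% interval -1.26 to 0.02, edgeR adjusted p = 0.112). The ratio of Ddit4 to Ddit4l differed 2.23-fold between the groups, and its untreated values, 48.1 and 35.9, rest on the few Ddit4l counts.

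Both genes of the tuberous sclerosis complex rose, by small amounts. Tsc2 (ENSMUSG00000002496.10, chromosome 17, 24595816 to 24632630, minus strand), which encodes tuberin, the subunit that switches RHEB off, had 112 and 107 CPM in untreated and 141 and 136 CPM in degron cells. The replicates were 1.04-fold apart in both groups, less than the gap between the groups. Tsc2 had a log2 fold change of 0.34 ± 0.06 SE (adjusted p = 8.76e-07, edgeR). The exons of Tsc2 share 693 of 9620 bases with Pkd1 on the opposite strand, and Pkd1, the polycystin gene, had a log2 fold change of 0.44 (edgeR adjusted p = 7.17e-07), so without a known strand setting the value of Tsc2 is uncertain, and the part of Pkd1 reads in it was not tested.

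Tsc1 (ENSMUSG00000026812.16, chromosome 2, 28641228 to 28691167, plus strand), which encodes hamartin, the subunit that stabilises tuberin, had 56.8 and 49.9 CPM in untreated and 62.5 and 64.4 CPM in degron cells. The untreated libraries were 1.14-fold apart, close to the 1.19-fold difference between the groups. Its log2 fold change was 0.25 ± 0.07 SE (adjusted p = 0.0042, edgeR), and it lost its call without replicate 2 of either group (adjusted p = 0.105 without the untreated and 0.05001 without the degron library) and with DESeq2 (adjusted p = 0.157). The ratio of Tsc2 to Tsc1 was 2.42 and 2.64 in untreated and 2.77 and 2.59 in degron cells, and these values overlapped. Tbc1d7, the remaining subunit of the complex, was named after its values were seen. It was not called (log2 fold change -0.02, 95% interval -0.30 to 0.25, edgeR adjusted p = 0.913).

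The GATOR1 subunits did not move together. Nprl2 (ENSMUSG00000010057.8, chromosome 9, 107542226 to 107545706, plus strand), which encodes the subunit with the catalytic arginine of the complex, had 20.9 and 22.0 CPM in untreated and 17.5 and 16.2 CPM in degron cells. Both degron libraries were below both untreated libraries. The log2 fold change was -0.35 ± 0.12 SE (adjusted p = 0.0155, edgeR), on 136 to 221 counts a library, and it lost its call without replicate 2 of either group (adjusted p = 0.0635 without the untreated and 0.125 without the degron library) and with DESeq2 (adjusted p = 0.231). Depdc5 (ENSMUSG00000037426.18, chromosome 5, 32863701 to 32994236, plus strand), which encodes the subunit that contacts the Rag GTPases, had 80.9 and 70.7 CPM in untreated and 89.0 and 81.7 CPM in degron cells. The lower degron library lay just above the higher untreated library. The log2 fold change was 0.17 ± 0.07 SE (adjusted p = 0.0315, edgeR), and 62.6% of all tested genes had a larger change. Depdc5 was not called when untreated replicate 2 or degron replicate 1 was left out (adjusted p = 0.389 and 0.378), without the filter on low counts (adjusted p = 0.0559) and with DESeq2 (adjusted p = 0.315).

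The ratio of Depdc5 to Nprl2 was 0.661 and 0.549 in untreated and 0.872 and 0.860 in degron cells, a 1.44-fold difference with no overlap between the groups. The remaining GATOR1 subunit gene, Nprl3, named after its values were seen, was not called (log2 fold change 0.11, 95% interval -0.07 to 0.29, edgeR adjusted p = 0.319). Its exons share 1340 of 7572 bases with Mpg on the opposite strand.

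Deptor (ENSMUSG00000022419.16, chromosome 15, 55112317 to 55259271, plus strand), which encodes the inhibitor that binds mTOR, had 71.4 and 68.7 CPM in untreated and 67.4 and 66.3 CPM in degron cells. The groups were close to each other, with the degron pair the lower, and with library sizes alone Deptor was the only member whose groups overlapped. Its log2 fold change was -0.07, with a 95% interval from -0.20 to 0.07 (edgeR adjusted p = 0.433). The interval holds none of the values of Sesn2, Sesn3, Ddit4 or Tsc2. Deptor shares 303 of 8874 exonic bases with Gm9920 on the opposite strand, which was at or below 0.542 CPM in every library.

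Levels of different genes were compared per kilobase of exon. In untreated cells Ddit4 was the most abundant member, at 42.8 ± 5.77 CPM per kilobase (SD, n = 2), followed by Sesn2 at 25.9 ± 1.90, Tsc2 at 11.4 ± 0.341 and Nprl2 at 10.7 ± 0.38. Deptor, Sesn1, Depdc5, Tsc1 and Sesn3 followed, from 7.89 down to 3.11 CPM per kilobase, and Ddit4l was lowest at 1.03 ± 0.0735. Only the neighbours Sesn1 and Depdc5 overlapped. In degron cells Sesn2 reached 55.4 ± 2.59 CPM per kilobase and came close to Ddit4 at 61.7 ± 0.727, and Nprl2 at 8.37 ± 0.426 lay well under Tsc2 at 14.4 ± 0.372. There Depdc5 stood above Sesn1, and it overlapped with Deptor. Exonic length was the union over all annotated transcripts, so genes with long optional exons come out low on this scale.

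The rest of the pathway was read from lists by role, to which a list of transcription factors was added. All of these lists were chosen with earlier results of these data known. Of 67 tested genes in these lists 18 (26.9%) were called higher and 9 (13.4%) lower, against 22.2% and 21.6% of all tested genes, with a median log2 fold change of 0.06. The 67 include 11 transcription factors known to act on sestrin or REDD1 genes, which are not parts of the pathway. Of these factors 7 were called higher and 0 lower, and every other list had fewer genes called higher. The share called higher therefore does not describe the pathway genes alone. The list medians lay between -0.15 and 0.34.

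**Figure D4:**
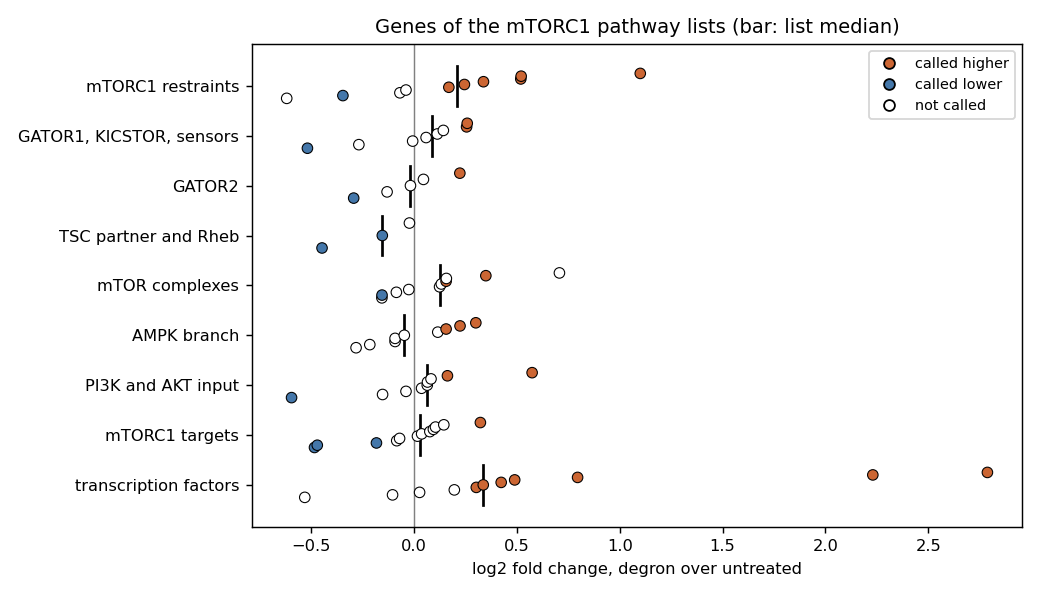
Log2 fold change of each tested gene of the mTORC1 pathway lists in degron over untreated cells (points, orange for called higher, blue for called lower, white for not called) with the median of each list (bar). The restraint genes reach 1.10 and the transcription factors 2.79, and most genes of the other lists lie within 0.5 of zero.

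The other genes of GATOR1, of the KICSTOR complex that anchors it at the lysosome, and of the amino acid sensors had a median log2 fold change of 0.09. Castor1, an arginine sensor that restrains mTORC1 when arginine is scarce, fell from 39.7 and 34.7 CPM to 26.9 and 25.1 CPM, with no overlap. Its log2 fold change was -0.52 ± 0.10 SE (adjusted p = 6.70e-06, edgeR), in the opposite direction to that of Sesn2, the gene of a leucine sensor. Itfg2 (0.26), a KICSTOR gene, was called higher. The Itfg2 call was lost without untreated replicate 2 and without degron replicate 2 (adjusted p = 0.117 and 0.302) and with DESeq2 (adjusted p = 0.277). Of 5 GATOR2 genes, whose complex the sestrins bind, Mios (0.22) rose and Seh1l (-0.29), which also serves the nuclear pore, fell. Mios was not called without replicate 2 of either group (adjusted p = 0.152 without the untreated and 0.198 without the degron library) or with DESeq2 (adjusted p = 0.283). Itfg2 and Seh1l overlap genes on the opposite strand, by 155 and 126 exonic bases.

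RHEB is the GTPase on which the tuberous sclerosis complex acts. Rheb (-0.15) and its paralog Rhebl1 (-0.45) were called lower. Without the low-count filter Rheb was not called (edgeR adjusted p = 0.0885). Rhebl1 went from 23.5 and 25.9 CPM to 18.4 and 17.7 CPM, and it shares 546 exonic bases with Dhh and with an antisense gene. The Rheb call was lost in 3 of the 4 fits that left out a library, which were those without untreated replicate 2, degron replicate 1 and degron replicate 2 (adjusted p = 0.181, 0.148 and 0.167), and with library sizes alone (adjusted p = 0.0856), and DESeq2 called neither gene (adjusted p = 0.261 for Rheb and 0.0808 for Rhebl1).

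Of 10 genes of the mTOR complexes 2 rose and 1 fell (median 0.13). Akt1s1, which encodes PRAS40, a further inhibitor that binds mTORC1, rose from 45.5 and 47.7 CPM to 56.9 and 61.9 CPM, with a log2 fold change of 0.35 ± 0.07 SE (adjusted p = 7.94e-05, edgeR). It shares 89 exonic bases with Tbc1d17 on the opposite strand. Rptor (0.16), the scaffold of mTORC1, was called higher and Tti1 (-0.16), which helps mTOR assemble, lower. Rptor lost its call without untreated replicate 2 and without degron replicate 1 (adjusted p = 0.162 and 0.433), Tti1 without untreated replicate 1 and without degron replicate 2 (adjusted p = 0.244 and 0.499) and with library sizes alone (adjusted p = 0.126), and DESeq2 called neither (adjusted p = 0.307 for Rptor and 0.341 for Tti1). The highest value in the list, 0.71 for Prr5l, came from under 3.2 CPM and was not called (edgeR adjusted p = 0.0954).

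The AMPK branch restrains mTORC1 when energy is low. Of its 9 genes 3 were called higher and 0 lower (median -0.05), the subunit gene Prkab2 (0.30) and Strada (0.22) and Stk11 (0.16), which encode LKB1's partner and LKB1, the upstream kinase. Stk11 shares 232 exonic bases with Cbarp on the opposite strand, and Strada shares 158 with Ccdc47 and 144 with Gm25556 on its own strand. At an unadjusted p under 0.05, edgeR had 1 of the 9 genes lower, where it had 25.7% of all genes higher and 24.5% lower, and DESeq2 had 0. Stk11 was not called without the low-count filter (edgeR adjusted p = 0.0542). None of the 3 was called by DESeq2 (adjusted p = 0.205, 0.222 and 0.252). With the replicate number as a block in the edgeR fit, 3 of the 9 genes were called higher and 1 lower. Fewer genes were called higher when any library was left out, and some of those fits called a gene lower. Prkab2 lost its call without replicate 2 of the untreated or the degron group (adjusted p = 0.0772 and 0.0714), and Strada without replicate 1 of either (adjusted p = 0.0674 and 0.106). Stk11 lost it without untreated replicate 1, degron replicate 1 and degron replicate 2 (adjusted p = 0.0729, 0.129 and 0.122).

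The genes of the PI3K and AKT input, which opposes the tuberous sclerosis complex, had a median log2 fold change of 0.06. Pik3r1, which encodes the regulatory subunit p85 alpha, rose from 26.7 and 19.0 CPM to 35.3 and 33.2 CPM, with a log2 fold change of 0.57 ± 0.11 SE (adjusted p = 6.36e-06, edgeR). Pik3r2 (0.16), its paralog, was called higher, but not without the low-count filter (edgeR adjusted p = 0.0658) or with DESeq2 (adjusted p = 0.32). The call was also lost without replicate 1 of the untreated or the degron group (log2 fold change 0.12 and 0.11).

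Among 12 genes that encode targets of mTORC1 signalling, 1 rose and 3 fell (median 0.03). Eif4e, which encodes the cap-binding protein of translation initiation, fell from 202 and 206 CPM to 144 and 150 CPM, and Eif4b, a helicase cofactor in the same step, fell from 1067 and 1045 CPM to 763 and 748 CPM. Their log2 fold changes were -0.47 ± 0.05 SE (adjusted p = 2.76e-11, edgeR) and -0.48 ± 0.06 SE (adjusted p = 2.74e-11, edgeR). Eif4ebp2 (-0.18), which encodes an inhibitor of eIF4E, was called lower. The call was lost without degron replicate 2, where its log2 fold change was -0.15. Rps6kb2 (0.32), an S6 kinase gene that shares 1224 exonic bases with Ptprcap on the opposite strand, was called higher, but not when untreated replicate 2 or degron replicate 1 was left out (adjusted p = 0.0599 and 0.192) or with DESeq2 (adjusted p = 0.277).

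Transcription factors that are known from other studies to act on sestrin or REDD1 genes were listed as well. This list, too, was chosen with earlier results of these data known. Of 11 tested, 7 rose and 0 fell (median 0.34), and DESeq2 also called 7 higher and 0 lower. At an unadjusted p under 0.05, edgeR had 8 higher and 0 lower, against the same 25.7% and 24.5% of all genes. Atf4, which encodes the factor of the integrated stress response that acts on Sesn2, rose from 276 and 333 CPM to 518 and 536 CPM, with a log2 fold change of 0.80 ± 0.06 SE (adjusted p = 1.13e-19, edgeR). Ddit3 (2.79), which encodes CHOP, and Cebpb (2.23) rose by more. Nfe2l2, which encodes the antioxidant regulator NRF2, rose from 94.8 and 97.8 CPM to 134 and 137 CPM, with a log2 fold change of 0.49 ± 0.06 SE (adjusted p = 4.54e-11, edgeR). The other called genes were Foxo3 (0.42), Trp53 (0.34) and Hif1a (0.30), named after their values were seen. Trp73, Nr3c1, Epas1 and Foxo1 were not called (-0.53, -0.10, 0.03 and 0.20). Cebpb, Ddit3 and Hif1a share 312, 68 and 330 exonic bases with genes on the opposite strand. Ddit3 also shares 105 exonic bases with another entry of its name on the same strand.

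**Figure D5:**
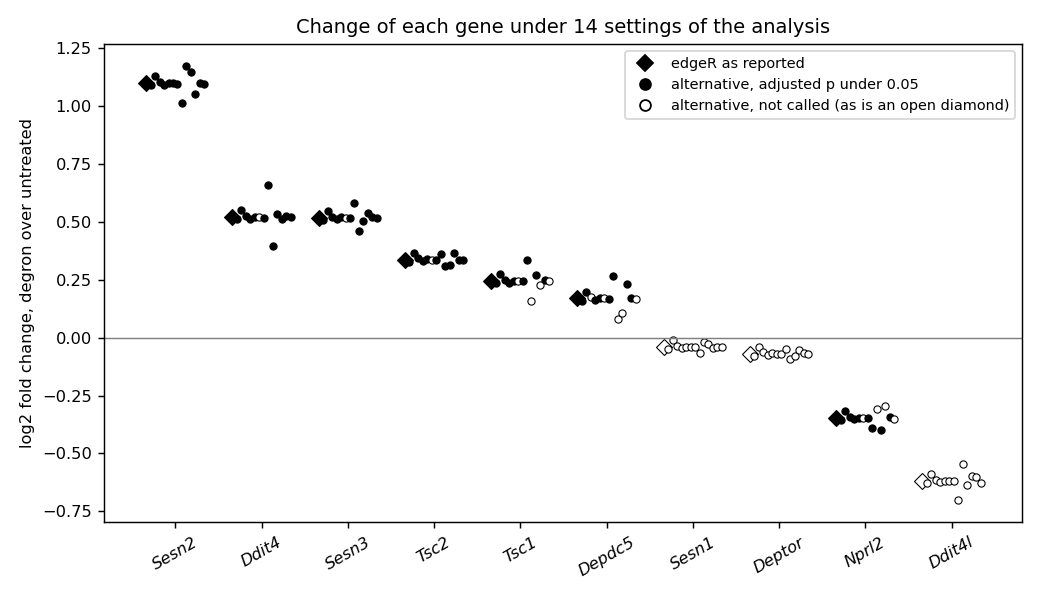
Log2 fold change of each mTORC1 restraint gene under 14 settings, from left to right in each column the edgeR fit as reported (diamond) and 13 alternatives (circles), filled where the adjusted p was under 0.05 and open where it was not. Sesn2 stays between 1.01 and 1.18 and filled in all of them, Tsc1, Depdc5 and Nprl2 change between filled and open, and no gene crosses zero.

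Across the alternatives the members fell into 3 kinds. Sesn2 was called in all 13 alternatives, with log2 fold changes from 1.01 to 1.18. Ddit4, Sesn3 and Tsc2 were called in 12 of 13, each missing only against the 1.5-fold minimum, and Tsc1, Nprl2 and Depdc5 in 9, 9 and 8. Sesn1, Deptor and Ddit4l were called in 0 of 13, with ranges from -0.07 to -0.01, from -0.09 to -0.04 and from -0.70 to -0.55.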

How the data were processed

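The 4 libraries were 2 of untreated and 2 of degron cells, named as poly(A) RNA in the labels and as total RNA-seq in the study's results. The authors deposited raw counts per gene. Per the submitters' notes and the study's methods, reads were trimmed (cutadapt 2.6) and aligned to mm10 (STAR 2.7.6a), primary alignments were kept, PCR duplicates were removed, and featureCounts 1.6.3 counted GENCODE M25 genes. For the strand setting, the sources used here give nothing, so genes with exons on both strands are uncertain. Coordinates and exonic lengths are from GENCODE M21, which matched 55141 of the IDs.

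The main test was the quasi-likelihood F test of edgeR 4.0.16 under R 4.3.3 (filterByExpr, TMM scaling, group as the only term), adjusted over 13916 genes at a threshold of 0.05. The SE is the log2 fold change over the square root of F, without its sign, and intervals (95%) use the fit's degrees of freedom. The procedure was tested on simulated data. The 13 alternatives were DESeq2 1.42.0, voom in limma 3.58.1, RLE scaling, library sizes alone, no low-count filter, a stricter one (1 CPM in each group), a replicate block, a 1.5-fold minimum, protein-coding genes without mitochondrial genes, and each library left out, where a lone library is assumed to vary like the other group. Adjusted p-values were missing from DESeq2 for 13513 of 26808 genes, none of them members.

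The members and lists were chosen with earlier results of these data known. All members are described, and up to 4 called genes with the smallest p are named from each pathway list. Some genes that this rule would name are not reported here. A planned comparison of protein sequences was not run.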

Additional observations from a re-analysis of the deposited data

How the results depend on the processing

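The direction of every member was kept under all 13 alternatives. These reuse the same 4 libraries, whose groups did not overlap in any member with TMM scaling, so a reversal was hardly possible. DESeq2 called 1440 genes higher and 1484 lower, against 3087 and 3006 with edgeR, and 0 members lower instead of 1. It did not call Tsc1 (0.25), Depdc5 (0.17) or Nprl2 (-0.35). The 1.5-fold minimum called 287 genes higher and 239 lower, with 1 member higher and 0 lower, so that Sesn3 (0.52), Ddit4 (0.52), Tsc2 (0.34), Tsc1 (0.25), Depdc5 (0.17) and Nprl2 (-0.35) were not called; each of them changed by less than 1.5-fold. Without the low-count filter Depdc5 (0.17) was not called. With a library left out, the log2 fold change of Tsc1 ranged from 0.16 to 0.34, that of Depdc5 from 0.082 to 0.27 and that of Nprl2 from -0.40 to -0.29, and between 4 and 6 members were called higher and between 0 and 1 lower. Of the counts in the pathway lists and the 6 ratios, 173 alternative values stayed close to the reported ones and 59 moved, such as the mTORC1 targets called higher, 4 instead of 1 with library sizes alone. Of these, the ratios with a library left out could not have moved, so they tell nothing about stability. They were judged by the spread of their replicates, which with 2 libraries a group always exceeds the shift from leaving 1 out.

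The replicate numbers in the labels are not stated to mark a shared culture or day, and same-numbered libraries deviated together only weakly (r = 0.05 across genes, 2 pairs). With the replicate number as a block, 6 members were called higher and 1 lower, as without it, and over all genes 3369 were higher and 3276 lower. Depth limits Ddit4l most, which had at most 30 counts in a library.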
